A study of Mus musculus with 15 samples.

Results

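Endomucin (Emcn) and 4 related surface sialomucins, Cd34, Podxl (podocalyxin), Podxl2 (endoglycan) and Cd164 (endolyn), were followed through a bulk RNA-seq series of mouse bone marrow endothelial cells (BMECs). They were found by gene symbol, and the 5 genes are 5 of 44674 in the deposited count table. The 15 libraries cover 8 conditions, 2 libraries each except for P4, which had 1. CPM, the unit of all levels below, is a count divided by the library total over all genes, times 1000000. Averages of a condition are given as mean ± SD (n = 2).

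Conditions are called as follows. P0 Emcn+ and P0 Emcn- are BMECs of the first culture passage, in which whole bone marrow was kept for about 2 weeks in endothelial medium. Adult Tie2-CreERT2;Rosa26-tdTomato mice that had received tamoxifen were the source, so that tdTomato marked cells in which the Tie2 (Tek) promoter had driven Cre, although the labels give the genotype of all 15 libraries as WT. CD45- tdTomato+ cells were sorted and then split with an antibody to Emcn at the cell surface. P1, P2, P3 and P4 Emcn- are Emcn- BMECs of later passages. Lung stands for tdTomato+ cells of lung cultures from the same reporter line. The labels do not give their Emcn status, which by the methods was negative. BM MSC are mesenchymal stromal cells from Osx-Cre;Rosa26-tdTomato mice, sorted as CD45- tdTomato+ cells after culture in a stromal medium. A dish usually came from 1 mouse, and the study states that the samples within a condition were independent. Whether libraries of different conditions came from the same mice or cultures is not given in the sources used here. The main tests below do not pair them.

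Sialomucins carry dense clusters of O-linked glycans ending in sialic acid, which give the cell surface a bulky negative coat. Endomucin coats the endothelium of capillaries, veins and marrow sinusoids and is low on arterial endothelium. CD34, podocalyxin and endoglycan form 1 family of membrane proteins, which can be a ligand of L-selectin when suitably glycosylated and can keep cells apart when it is not. CD164 sits mostly in late endosomes and lysosomes and is made by many cell types.

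The genes lie on 4 chromosomes of GRCm38, and all 5 are protein coding. Emcn spans chr3:137341067-137432185 on the plus strand, Cd34 chr1:194938819-194961279 on the plus strand and Cd164 chr10:41519414-41531048 on the plus strand. Podxl spans chr6:31519488-31563981 and Podxl2 chr6:88842558-88875044, both on the minus strand. An antisense gene shares exon sequence with Cd34 (Gm16897, 100 counts over all libraries) and with Podxl2 (Gm15612, 68 counts). The strand setting of the counting is not given in the sources used here, so these reads cannot be told apart from those of the antisense gene.

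Promoter windows are shown for the members that a RefSeq window matched, and Podxl had none. Of the members shown, Emcn and Cd34 were highest in P0 Emcn+ BMECs, Podxl2 was lowest there and Cd164 was near even. RefSeq windows (GRCm38.p6, 250 bases before to 50 after a gene start) matched 4 of the 5 members: Emcn chr3:137340828-137341127 (+), Cd34 chr1:194938571-194938870 (+), Podxl2 chr6:88874997-88875296 (-, the first of its 3 starts) and Cd164 chr10:41519250-41519549 (+). Capitals mark the letters CGGAAG or AGGAAG, the core that ETS factors can bind, and on the other strand CTTCCG or CTTCCT.
Emcn: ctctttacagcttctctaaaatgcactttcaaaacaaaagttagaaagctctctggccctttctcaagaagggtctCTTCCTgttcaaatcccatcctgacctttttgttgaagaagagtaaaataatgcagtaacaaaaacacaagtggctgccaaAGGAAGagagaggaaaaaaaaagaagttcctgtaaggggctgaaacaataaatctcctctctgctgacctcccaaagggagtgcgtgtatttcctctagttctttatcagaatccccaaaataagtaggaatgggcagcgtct
Cd34: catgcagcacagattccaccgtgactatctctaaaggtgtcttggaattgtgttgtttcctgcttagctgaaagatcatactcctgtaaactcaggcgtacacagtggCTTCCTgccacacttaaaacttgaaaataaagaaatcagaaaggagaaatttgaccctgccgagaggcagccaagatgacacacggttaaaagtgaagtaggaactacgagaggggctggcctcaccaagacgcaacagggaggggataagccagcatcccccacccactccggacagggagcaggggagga
Podxl2: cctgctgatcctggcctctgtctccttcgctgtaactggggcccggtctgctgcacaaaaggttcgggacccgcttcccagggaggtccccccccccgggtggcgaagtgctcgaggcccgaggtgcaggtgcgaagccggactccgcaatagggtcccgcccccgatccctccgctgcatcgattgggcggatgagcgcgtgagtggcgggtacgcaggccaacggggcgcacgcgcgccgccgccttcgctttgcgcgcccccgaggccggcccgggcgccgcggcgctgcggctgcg
Cd164: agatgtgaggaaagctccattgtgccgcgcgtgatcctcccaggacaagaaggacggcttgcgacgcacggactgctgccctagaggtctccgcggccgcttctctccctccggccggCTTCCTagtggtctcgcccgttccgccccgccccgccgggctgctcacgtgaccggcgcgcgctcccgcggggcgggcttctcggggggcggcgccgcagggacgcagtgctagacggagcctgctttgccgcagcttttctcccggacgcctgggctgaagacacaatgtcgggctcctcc

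The windows differ in base composition. That of Emcn has 2 CpG and 41.0% G or C, and that of Cd34 has 7 CpG and 50%. Windows of Podxl2 and Cd164 hold 39 and 36 CpG, with 73.33% and 70.0% G or C. Of all 32851 mouse windows, 23.31% have as few CpG as Emcn, and 96.09% have as few as the first start of Podxl2. The ETS letters occur in the windows of Emcn (2 matches), Cd34 (1) and Cd164 (1), and 46.5% of all windows hold them. The window of the first Podxl2 start holds none. Of the other Podxl2 starts, only that with the window chr6:88874016-88874315 holds a match (1), and this window has 10 CpG and 57.33% G or C. The Emcn window also holds 1 match to the GATA letters AGATAA or TGATAA on either strand, which 18.6% of all windows hold. No window of the 4 members holds TATAAA on either strand, found in 13.6% of all windows.

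The libraries held 9914620 to 39718807 counts, and 3 counts, the most a gene at 0 may hide, are worth 0.0755 to 0.303 CPM. Intervals on counts cover counting error only. Replicates of the 7 replicated conditions were further apart than counting alone would put them (chi-square over its degrees of freedom, 42.5 to 140.5), and p-values measure the spread between them. The labels place P0 and Lung libraries in other batches than all passaged and BM MSC libraries, so condition and batch cannot be told apart between these sets. The 12 endothelial markers (Cdh5, Pecam1 and others) summed to 11364 to 13370 CPM in P0 Emcn+, 170 to 426 in P0 Emcn-, 361 to 903 in Lung, 183 to 507 in BM MSC and 154 to 217 in passaged BMECs. The 8 fibroblast markers (Col1a1, Pdgfra and others) summed to 244 to 314 CPM in P0 Emcn+, 17678 to 22940 in P0 Emcn-, 13656 to 14571 in Lung, 11651 to 21777 in BM MSC and 4852 to 7396 in passaged BMECs. Thus the libraries labelled Emcn- BMEC, and those of Lung, held low levels of endothelial and high levels of fibroblast transcripts. At the RNA level this goes against the label of endothelial cells. By immunostaining, the study found VE-cadherin (Cdh5) and CD31 (Pecam1) protein on the Emcn- colonies of its P0 cultures too. It also reports that P0 Emcn- BMECs were enriched in mesenchymal genes such as Pdgfrb. No marker of either list was at 0 in a P0 Emcn- or Lung library, and of the endothelial ones Robo4 was at 0 in P3 replicate 1 and P4 and Cldn5 in P4. In these bulk samples, fewer cells of a type and less RNA per cell cannot be told apart, and the part of this difference in the results below was not tested.

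Emcn itself checks the sort. The P0 Emcn+ libraries held 631 and 798 CPM of Emcn (714 ± 118, SD, n = 2), and the P0 Emcn- libraries 12.7 and 2.52 (7.59 ± 7.17, SD, n = 2). Lung held 32.6 and 125 CPM, and BM MSC 1.23 and 26.7 CPM. Libraries of P1 held 2.35 and 1.47 CPM, those of P2 3.68 and 1.06, those of P3 3.39 and 0.925, and the single library of P4 held 3.52. Both P0 Emcn+ libraries thus stand above every other library, and the transcript follows the surface protein used for sorting, so that its difference between P0 Emcn+ and P0 Emcn- is a description of the gate and no finding. The second highest condition was Lung, whose libraries do not overlap with those of BM MSC, the third. Further down the order of means, from BM MSC through P0 Emcn-, P4, P2 and P3 to P1, each condition overlaps with the next.

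Podxl, an anti-adhesive sialomucin of the apical surface of endothelium and podocytes, had the same top condition at a lower level. P0 Emcn+ libraries held 34.9 and 27.6 CPM (31.2 ± 5.14, SD, n = 2). The P0 Emcn- libraries held 1.86 CPM and 0.101 CPM, the latter being 1 count (exact 95% Poisson interval 0.00255 to 0.562 CPM). Lung held 0.690 and 3.04 CPM and BM MSC 0.617 and 4.05 CPM, while every passaged library lay between 0.233 and 0.444 CPM (8 to 13 counts). Among the conditions below P0 Emcn+, the neighbours BM MSC, Lung, P0 Emcn-, P3, P2 and P1 overlap in their libraries. In Lung and BM MSC, Podxl and Emcn were both higher in replicate 2, and so was the summed level of the endothelial markers (903 against 361 CPM in Lung, 507 against 183 in BM MSC). In P0 Emcn-, Podxl, Emcn and the summed endothelial markers (426 against 170 CPM) were higher in replicate 1.

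Cd34 marks endothelium and haematopoietic progenitors and is also found on stromal cells. Its highest level was in P0 Emcn+ (319 and 417 CPM, 368 ± 69.5, SD, n = 2), but no other condition was near 0. P4 held 134 CPM, BM MSC 111 and 123, P2 98.4 and 107, P3 87.0 and 105, and P1 86.2 and 84.7 CPM. P0 Emcn- libraries differed widely, at 26.8 and 123 CPM, and Lung held 44.2 and 99.3 CPM. The P0 Emcn- library with more Cd34 was the one with less Emcn and Podxl. The means of all conditions other than P0 Emcn+ ran from 71.8 to 134 CPM, and the widely spaced P0 Emcn- libraries overlap with those of Lung, P1, P2, P3 and BM MSC. Kit, the most abundant of the progenitor markers, was at 703 and 586 CPM in P0 Emcn+ against 23.3 and 1.82 in the negative fraction, and its part in the level of Cd34 was not tested.

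**Figure D1:**
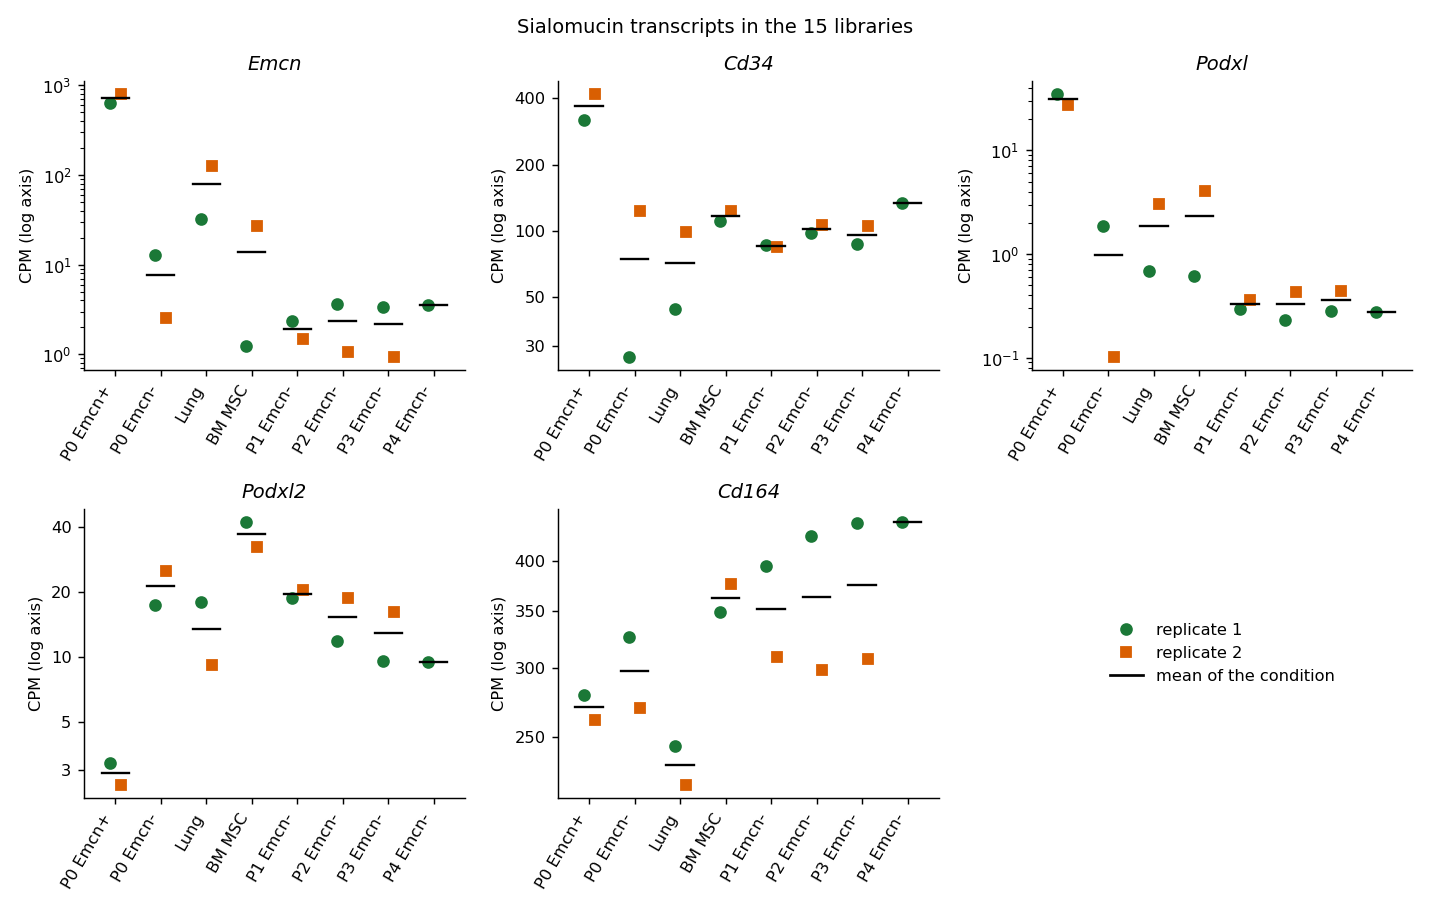
CPM on a log axis of each sialomucin in the 15 libraries by condition, with circles for replicate 1, squares for replicate 2 and a black line for the mean of the condition. Emcn, Podxl and Cd34 are highest in P0 Emcn+ (714, 31.2 and 368 CPM on average), Podxl2 is lowest there (2.89 CPM), and Cd164 stays between 220 and 443 CPM in every library.

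Podxl2, the third gene of the CD34 family, had P0 Emcn+ at the bottom of its order instead of the top. It was lowest in P0 Emcn+ (3.23 and 2.55 CPM, 2.89 ± 0.482, SD, n = 2) and highest in BM MSC (42.2 and 32.2 CPM). P0 Emcn- held 17.4 and 25.01 CPM, P1 18.7 and 20.4, P2 11.9 and 18.8, Lung 17.9 and 9.13, P3 9.62 and 16.2 and P4 9.43 CPM. Neither P0 Emcn+ nor BM MSC overlaps with any other condition, while from P0 Emcn- through P1, P2 and Lung to P3 each condition overlaps with the next, and P4 lies just below P3 without overlap. Cd164 hardly varied. Its lowest library (Lung, 220 CPM) and its highest (P4, 443 CPM) lay 2.02-fold apart, against 862-fold for Emcn, 15.6-fold for Cd34 and 16.5-fold for Podxl2. Lung (244 and 220 CPM) and P0 Emcn+ (279 and 262 CPM) held the least Cd164, P0 Emcn- held 326 and 270, and BM MSC held 349 and 376 CPM. In passaged BMECs, Cd164 was 394, 428 and 442 CPM in replicate 1 of P1, P2 and P3 and 309, 299 and 307 CPM in replicate 2. Libraries thus differed more by replicate than by passage. Replicate and batch are the same split there and cannot be told apart.

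Levels of different genes can be compared only per length. In P0 Emcn+, CPM per kb of merged exons were 132 for Emcn, 60.8 for Cd164, 50.5 for Cd34, 5.69 for Podxl and 0.503 for Podxl2. With the length of the longest transcript instead, Cd34 (120 CPM per kb) came above Cd164 (92.6). In P0 Emcn- the order was Cd164 (67.0), Cd34 (10.3), Podxl2 (3.69), Emcn (1.404) and Podxl (0.179). Hence Emcn was the most abundant of the 5 transcripts per length in P0 Emcn+, and Cd164 was in every other condition. In Lung, Emcn (14.5 CPM per kb) and Cd34 (9.85) were close, with overlapping libraries in the plot of levels per exon length.

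**Figure D2:**
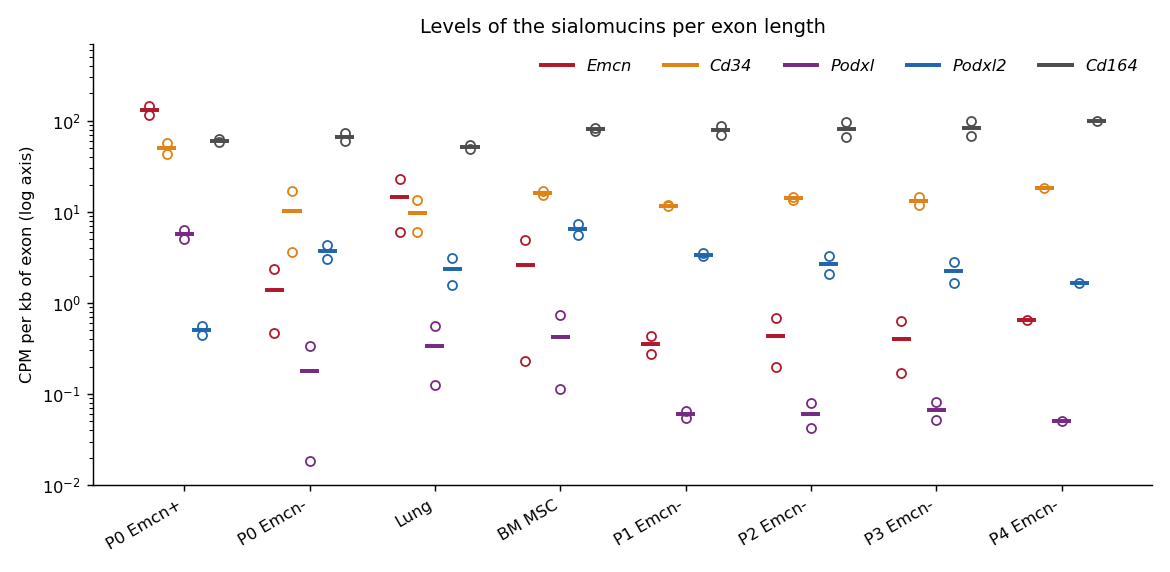
Level of the 5 sialomucins in CPM per kb of merged exons, on a log axis, in each library (open circles) with the mean of the condition (bars), by condition. Emcn leads in P0 Emcn+ at 132 CPM per kb, and Cd164 leads in all other conditions at 52.1 to 99.7 CPM per kb.

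The comparison of P0 Emcn+ with P0 Emcn- asks how the fractions that the surface Emcn gate separates differ. Of the 5 genes, 3 were higher in the Emcn+ fraction, namely Emcn, Podxl and Cd34, 1 was lower (Podxl2) and 1 was not called (Cd164). Genes were called in edgeR's quasi-likelihood test when the p adjusted by Benjamini and Hochberg lay below 0.05 and the log2 fold change lay beyond 1.5 in either direction, and 19.2% of the 19401 genes tested were called (7.79% higher, 11.4% lower). The call of Emcn follows from the gate and is not read against that share, which leaves 3 of the other 4 genes. Emcn, the gene of the gate, differed by a log2 fold change of 6.49 (SE 1.43). Podxl was higher by a log2 fold change of 4.79 (SE 1.07, edgeR adjusted p = 0.00606) and Cd34 by 2.34 (SE 0.57, edgeR adjusted p = 0.0101). Podxl2 was lower, with a log2 fold change of -2.83 (SE 0.40, edgeR adjusted p = 0.000432). The libraries of these 4 genes do not overlap between the conditions. Cd164 did not pass, at -0.11 with a 95% interval of -0.65 to 0.44. Calls were kept when any of the 4 libraries was left out, but the sizes depended on the P0 Emcn- libraries: without replicate 1 the log2 fold change of Podxl was 8.26, that of Emcn 8.20 and that of Cd34 1.63, and without replicate 2 they were 4.10, 5.85 and 3.81. The 8.26 of Podxl rests on 1 count in P0 Emcn- replicate 2, too few for a fold. In a fit of only the compared groups Cd34 was not called (edgeR adjusted p = 0.08). Within batches the log2 ratios of Podxl2 were -2.43 and -3.29 and those of Cd34 3.58 and 1.76.

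**Figure D3:**
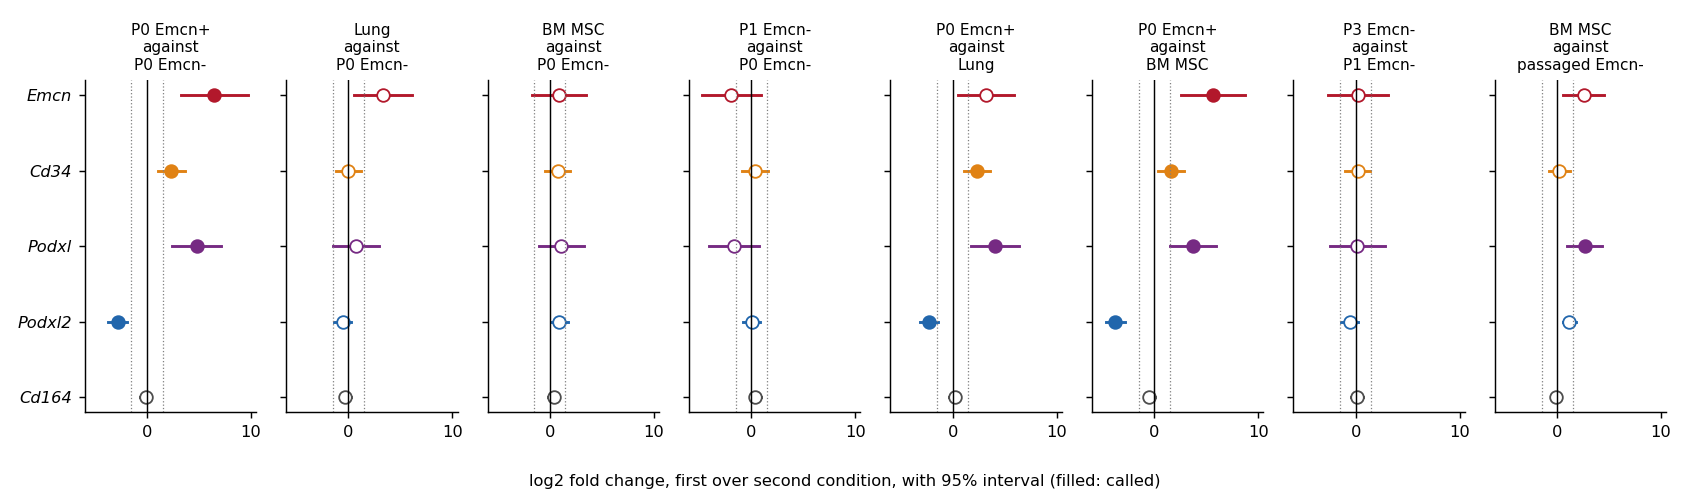
Log2 fold change (x axis, first over second condition) of the 5 sialomucins in the 8 comparisons, with the 95% interval of edgeR's fit, filled circles for called genes and dotted lines at the limits of -1.5 and 1.5. P0 Emcn+ differs from P0 Emcn- and from BM MSC in 4 genes each, and Emcn, on which P0 Emcn+ was sorted, is among these 4 in both. Cd164 is called in none, with log2 fold changes of -0.48 to 0.40.

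Most, but not all, of the 12 endothelial markers were low together with Emcn in the Emcn- fraction. As a share of the P0 Emcn+ library of the same batch, Emcn was 2.01% in replicate 1 and 0.316% in replicate 2 of P0 Emcn-. Cdh5 (VE-cadherin) was 1.92% and 0.124% and Pecam1 (CD31) 1.93% and 0.227% of that level. Of the 12 markers, 9 (Cdh5, Pecam1, Tie1, Kdr, Erg, Egfl7, Esam, Robo4 and Cldn5) stood at 1.92% to 2.65% in replicate 1 and at 0.631% or less in replicate 2. Eng (endoglin) kept 13.7% and 12.4%. Flt1 (a VEGF receptor) was 70.4 and 8.88 CPM in P0 Emcn- against 25.99 and 47.96 in the same-batch P0 Emcn+ libraries, 271% and 18.5%, and was the marker not called. Podxl was 5.34% in replicate 1. Cd34 kept 8.39% and 29.6%, and Tek, whose promoter drives the Cre of the reporter, kept 12.1% and 39.7%, both higher in replicate 2. Of the 12 endothelial markers, 11 were called higher in the positive fraction (median log2 fold change 6.05 over the list, -0.06 over all genes), and all 8 fibroblast markers were called lower (median -6.10).

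**Figure D4:**
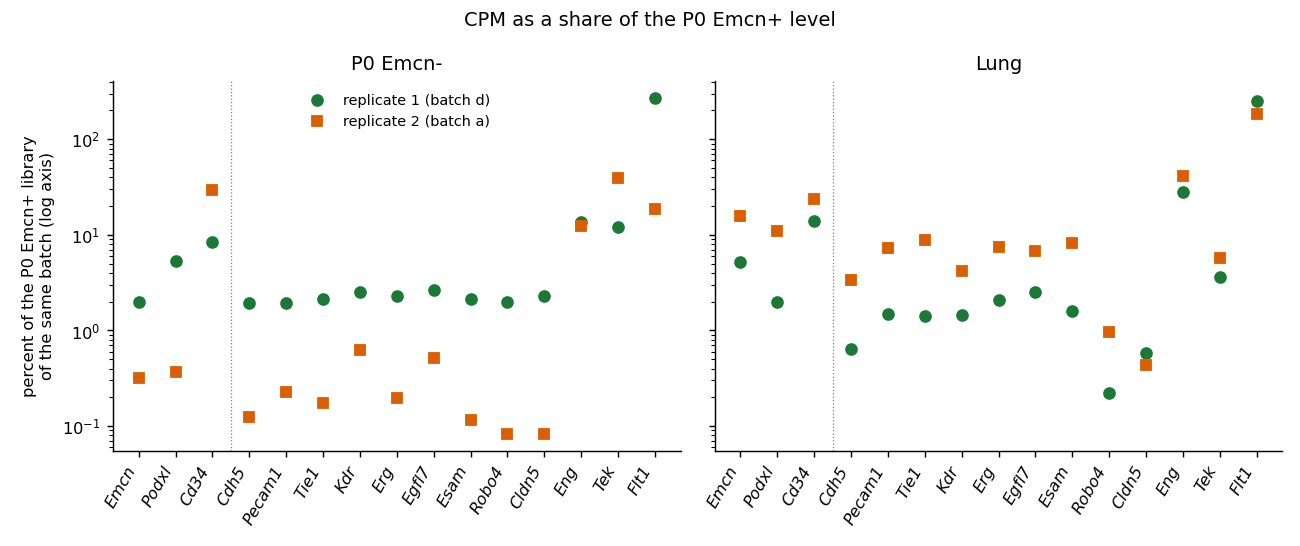
CPM in P0 Emcn- (left) and Lung (right) as a percent of the P0 Emcn+ library of the same batch, on a log axis, for Emcn, Podxl and Cd34 (left of the dotted line) and the 12 endothelial markers, with circles for replicate 1 and squares for replicate 2. In P0 Emcn- 9 of the 12 markers lie near the low share of Emcn (2.01% and 0.316%), Cd34, Eng and Tek keep larger shares and Flt1 exceeds 100% in replicate 1 (271%), and in Lung Emcn (5.17% and 15.6%) lies above Cdh5 (0.635% and 3.35%).

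Lung cultures allow the same question for another organ. Against P0 Emcn-, edgeR called 0 of the 5 genes, where 3.83% of all genes tested were called. DESeq2's Wald test also called 0. In edgeR, 1 of the 5 (Emcn) had an unadjusted p under 0.05, as did 3491 of all 19401 genes tested. Emcn was 32.6 and 125 CPM in Lung against 12.7 and 2.52 in P0 Emcn-, with no overlap, but the log2 fold change of 3.33 (SE 1.25, 95% interval 0.56 to 6.11) did not pass after adjustment (edgeR adjusted p = 0.184). It was 5.02 without P0 Emcn- replicate 1 and 2.09 without Lung replicate 2. For Cd34 the difference was 0.01 with an interval of -1.22 to 1.23, for Podxl 0.72 (-1.47 to 2.91), for Podxl2 -0.56 (-1.39 to 0.26) and for Cd164 -0.30 (-0.84 to 0.25). The intervals of Emcn, Cd34, Podxl and Podxl2 all include log2 fold changes beyond 1 in size.

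Against P0 Emcn+, Lung differed in 3 genes, where 21.1% of all genes tested were called (8.48% higher and 12.6% lower in P0 Emcn+). Cd34 was higher in P0 Emcn+ by a log2 fold change of 2.33 (SE 0.57, edgeR adjusted p = 0.00936) and Podxl by 4.07 (SE 1.02, edgeR adjusted p = 0.0106). Podxl2 was lower, at -2.27 (SE 0.39, edgeR adjusted p = 0.00137). Emcn was higher in P0 Emcn+ without overlap, yet its log2 fold change of 3.16 (SE 1.22) was not called (edgeR adjusted p = 0.0657), and DESeq2's Wald test did call it (adjusted p = 0.0374). P0 Emcn+ was sorted on surface Emcn, so the direction of this difference follows from the gate and is no finding. Without replicate 1 of Lung, Cd34 (log2 fold change 1.89, adjusted p = 0.0733) and Podxl (3.36, adjusted p = 0.0716) were not called by edgeR, and without Lung replicate 2 their log2 fold changes were 3.02 and 5.45. Cd164 differed by 0.19 (95% interval -0.36 to 0.73). Within batches, Emcn in Lung was 5.17% and 15.6% of P0 Emcn+, and Cdh5 was 0.635% and 3.35%, Pecam1 1.49% and 7.20%, and Podxl 1.98% and 11.03%.

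BM MSC served as the stromal reference. Against P0 Emcn-, edgeR called 0 of the 5 genes, where 18.7% of all genes tested were called. DESeq2's Wald test called 0. In edgeR, 1 of the 5 (Podxl2) had an unadjusted p under 0.05, as did 9008 of all 19401 genes tested. Podxl2 was higher in BM MSC without overlap, at a log2 fold change of 0.91 (95% interval 0.09 to 1.73, edgeR adjusted p = 0.0795). Emcn differed by 0.85 (-1.75 to 3.46) and Podxl by 1.08 (-1.08 to 3.24), both with overlapping libraries, and without BM MSC replicate 2 their log2 fold changes were -2.60 and -0.79. Cd34 differed by 0.74 (-0.49 to 1.97), and without P0 Emcn- replicate 2, its log2 fold change was 2.19 and was called (edgeR adjusted p = 0.00481). Cd164 was higher in BM MSC without overlap, by 0.37 (-0.17 to 0.92, edgeR adjusted p = 0.258), and by 0.63 with the replicate block (adjusted p = 0.00593), under the fold limit. BM MSC and P0 Emcn- share no batch, so the block takes its shift of BM MSC from the passaged libraries. Whether that shift holds between these conditions cannot be told.

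P0 Emcn+ differed from BM MSC in 4 of the 5 genes, where 31.3% of all genes tested were called (11.3% higher and 20.1% lower in P0 Emcn+). P0 Emcn+ was sorted on surface Emcn, so the call of Emcn is no finding and is not read against that share. Emcn, the gene of the gate, was higher by a log2 fold change of 5.64 (SE 1.37). Podxl was higher by 3.71 (SE 1.00, edgeR adjusted p = 0.0111) and Cd34 by 1.598 (SE 0.56, adjusted p = 0.0353). Podxl2 was lower, at -3.74 (SE 0.41, edgeR adjusted p = 5.73e-05), the lowest adjusted p of the 5 genes over the 8 comparisons. Cd34 lost its call without any one of the 4 libraries (edgeR adjusted p = 0.0579 to 0.13), and with fold changes shrunken by ashr it lay under the fold limit (1.24). Podxl lost its call without BM MSC replicate 1 (2.92, edgeR adjusted p = 0.0567), and without BM MSC replicate 2 the log2 fold changes of Emcn and Podxl were 9.10 and 5.58. Cd164 was lower in P0 Emcn+ without overlap, at -0.48 (95% interval -1.02 to 0.07, edgeR adjusted p = 0.125), and -0.74 with the replicate block (adjusted p = 0.00181), under the fold limit. No batch is shared by these conditions, so here too the block takes its shift of BM MSC from the passaged libraries.

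The passages ask whether the Emcn- BMECs keep their levels in culture. Between P1 and P0 Emcn-, 0 of the 5 genes were called by edgeR, where 8.84% of all genes tested were. None of the 5 had an unadjusted p under 0.05 in edgeR, where 6683 of all 19401 genes tested did. DESeq2's Wald test called 0 of the 5. Emcn was lower in P1 in all libraries (2.35 and 1.47 against 12.7 and 2.52 CPM), at a log2 fold change of -1.91 (95% interval -4.74 to 0.92), which was -0.23 without P0 Emcn- replicate 1. Podxl differed by -1.65 (-4.08 to 0.78) and turned to 1.80 without P0 Emcn- replicate 1, since the other P0 Emcn- library held 1 count. Cd34 differed by 0.36 (-0.87 to 1.58) and was called without P0 Emcn- replicate 2 (1.81, edgeR adjusted p = 0.0146). Podxl2 (0.04, interval -0.78 to 0.86) and Cd164 (0.40, -0.15 to 0.94) did not pass.

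From P1 to P3, edgeR called 0 of the 5 genes, where 0.222% of all genes tested were called. None of the 5 had an unadjusted p under 0.05 in edgeR, where 2634 of all 19401 genes tested did. DESeq2's Wald test called 0 of the 5. Podxl2 was lower in P3 than in P1 in both batches (9.62 against 18.7 CPM in replicate 1 and 16.2 against 20.4 in replicate 2), but its log2 fold change of -0.57 (95% interval -1.39 to 0.25) did not pass. Cd34 was higher in P3, at 87.0 and 105 against 86.2 and 84.7 CPM (0.20, interval -1.02 to 1.42). Emcn rested at 25 to 126 counts a library in P1 to P3, and within batches its log2 ratio of P3 to P1 was 0.53 and -0.67, so that no shared direction was seen. Cd164 differed by 0.13 (-0.41 to 0.67). P4 has 1 library and enters no comparison.

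BM MSC were also set against the mean of P1, P2 and P3. Here 1 gene was called by edgeR, where 14.2% of all genes tested were. Podxl was higher in BM MSC (0.617 and 4.05 CPM against 0.233 to 0.444), at a log2 fold change of 2.66 (SE 0.76, edgeR adjusted p = 0.0229). This call rests on 1 library, since without BM MSC replicate 2 the log2 fold change was 0.80 (adjusted p = 0.626), and it was also lost without replicate 1 of P1, P2 or P3 (adjusted p = 0.0525 to 0.0537) and with the replicate block (2.40, adjusted p = 0.1). Emcn followed the same library (2.56, SE 0.89, edgeR adjusted p = 0.0514) and came to -0.88 without it. Podxl2 was higher in both BM MSC libraries than in any passaged library, by a log2 fold change of 1.16 (95% interval 0.53 to 1.79, edgeR adjusted p = 0.011), under the fold limit of a call. Cd34 differed by 0.21 (-0.77 to 1.19) and Cd164 by -0.10 (-0.55 to 0.34). The BM MSC replicate 2 library also held more Kit (47.0 against 10.1 CPM in replicate 1) and more endothelial markers (507 against 183 CPM summed).

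Enzymes that build mucin-type O-glycans start with N-acetylgalactosamine on serine or threonine, which is then extended, branched, sulfated or capped with sialic acid. Of 21 such genes tested between P0 Emcn+ and P0 Emcn-, 7 were called higher and 2 lower (median log2 fold change 0.24, all genes -0.06), where 7.79% of all genes were called higher and 11.4% lower. B3gnt3, which extends core glycans toward L-selectin ligands, was 189 and 215 CPM in the Emcn+ fraction of P0 against 17.95 and 12.8 CPM (log2 fold change 3.73, SE 0.53, edgeR adjusted p = 0.000459). Galnt18, of the family that adds the first sugar, was 78.8 and 37.7 against 3.10 and 2.72 CPM (4.34, adjusted p = 0.000133), and its relative Galnt16 was lower (-5.89, adjusted p = 0.000105). Against Lung, 7 of the 21 were higher and 3 lower in P0 Emcn+ (8.48% and 12.6% of all genes), and against BM MSC 6 were higher and 2 lower (11.3% and 20.1% of all genes). B3gnt3 was among the higher ones in both (4.10 and 4.67). Gcnt1 and Gcnt4, which start a branch of these glycans, were also among the lower ones, Gcnt1 against Lung (log2 fold change -3.69) and Gcnt4 against BM MSC, where P0 Emcn+ held 0.0634 and 0.232 CPM, too few counts for a fold, and BM MSC 10.6 and 24.7. Galnt2 was called lower in P1 (7.53 and 16.7 CPM) than in P0 Emcn- (349 and 216 CPM, log2 fold change -4.40, edgeR adjusted p = 4.7e-05). It was also 143 to 167 CPM in P0 Emcn+ and 202 to 224 in Lung but 11.5 and 13.4 in BM MSC and at most 16.7 in every passaged library, so that it split the libraries by batch set, and batch and condition cannot be told apart for it.

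Of 17 tested genes that supply or transfer sialic acid, 4 were called higher and 1 lower in the Emcn+ fraction of P0 (median log2 fold change 1.02), beside 7.79% and 11.4% of all genes. St6galnac3, a sialyltransferase, was 47.5 and 25.4 CPM in P0 Emcn+ against 0.68 and 0 CPM (edgeR adjusted p = 0.00123), and with 1 library at 0 its fitted log2 fold change of 6.36 depends on the prior count. The related St6galnac6 was lower (10.9 and 15.4 against 56.4 and 73.1 CPM, -2.27, adjusted p = 1.13e-05), and St3gal6 was higher (2.13, adjusted p = 0.000874). The counts were 4 higher and 1 lower against Lung (all genes 8.48% and 12.6%) and 5 higher and 1 lower against BM MSC (11.3% and 20.1%). Against P0 Emcn-, 0 of the 17 were called in Lung (all genes 3.83%), 1 was higher and 2 were lower in BM MSC (all genes 18.7%, about the same share), and 1 was higher in P1 (all genes 8.84%).

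Podocalyxin and CD34 are tied to the cortical actin by scaffold and linker proteins. Of 6 such partners, 2 were called higher and none lower in the positive fraction of P0 (median log2 fold change 0.59, all genes 7.79% higher and 11.4% lower). Slc9a3r2 (NHERF2), a scaffold that binds the tail of podocalyxin, was 94.9 and 119 CPM against 19.6 and 23.0 (2.36, SE 0.18, edgeR adjusted p = 9.45e-06). Msn (moesin) was 1460 and 1709 CPM against 444 and 254 (2.21, SE 0.28, adjusted p = 0.000194). The same 2 genes were called against Lung (1.94 and 1.86), and Slc9a3r2 alone against BM MSC (2.28). The values of these partners and enzymes by library are in the plot of glycosyltransferase and partner transcripts.

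**Figure D5:**
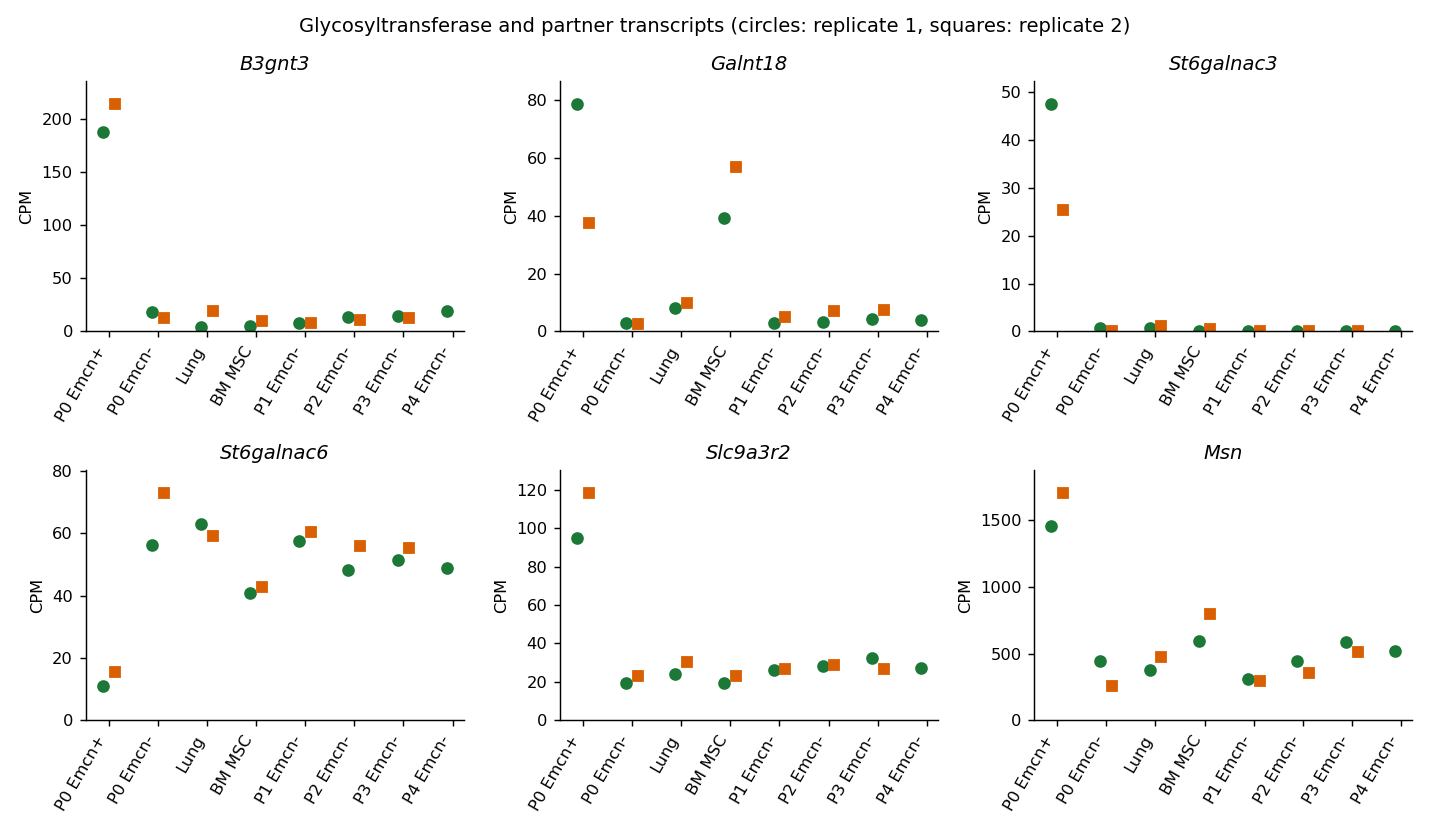
CPM by library and condition of 4 glycosyltransferases and 2 cytoplasmic partners of the sialomucins, with circles for replicate 1 and squares for replicate 2, each panel starting at 0. B3gnt3, St6galnac3, Slc9a3r2 and Msn are highest in both P0 Emcn+ libraries, St6galnac6 is lowest there (10.9 and 15.4 CPM), and Galnt18 is high in BM MSC too.

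Selectins bind such glycans. Of the 3 genes, Selp (P-selectin) and Sele (E-selectin) were called higher in the positive fraction of P0, as were 7.79% of all genes. Selp was 12.5 and 61.4 CPM against 0.327 and 0.101 CPM, the last being 1 count (edgeR adjusted p = 0.00155), and Sele was 1.39 and 6.26 CPM against 0.0504 and 0 (adjusted p = 0.0106), too few counts for a fold. Lung held 7.65 and 52.1 CPM of Selp, called against P0 Emcn- too (adjusted p = 0.0122). Between P0 Emcn+ and Lung, Selp and Sele differed by 0.29 and 0.72 and were not called. Of 11 other mucin-type surface glycoproteins tested, 2 were higher and 3 lower in the positive fraction (median 0.03, all genes 7.79% and 11.4%). Pdpn (podoplanin), found on lymphatic endothelium and fibroblasts, was 2.69 and 5.06 against 230 and 159 CPM (-5.62, adjusted p = 3.09e-06), and Cd68, a mucin-like protein of macrophage lysosomes, was 111 and 67.1 against 26.1 and 27.0 (1.78, adjusted p = 0.00876). The 8 macrophage markers summed to 718 to 829 CPM in P0 Emcn+ and 205 to 230 in P0 Emcn-. Of these, 2 were called higher, 0 lower and 6 were not called. Mrc1, which the study lists among its sinusoidal and venous endothelial markers, held 396 and 237 CPM of the sums in P0 Emcn+. Lyz2 held 322 and 334 CPM of them. The part of the macrophage markers in the level of Cd68 was not tested.

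Genes most like each sialomucin were named by Pearson's r of log2 CPM over the 15 libraries among 11164 genes with at least 10 CPM in 2 or more libraries. The libraries share conditions and batches, so r is a description only. The 5 nearest to Emcn were Tal1, Icam2, Rapgef5, Mmrn2 and Nrarp, with r of 0.968 to 0.963. Spearman's rho for them was lower, at 0.731 to 0.836. Tal1 (44.9 CPM on average in P0 Emcn+, at most 4.16 in any other condition) and Icam2 (138, at most 3.35) met the 10 CPM limit only through P0 Emcn+. Nrarp (229, at most 7.26) also averaged under 10 CPM in every other condition. Mmrn2, a matrix glycoprotein, averaged 429 CPM in P0 Emcn+, 20.3 in Lung, 5.61 in BM MSC and 3.59 in P0 Emcn-, the order of Emcn itself. Nearest to Podxl were Ppp1r16b (r = 0.988), Pecam1 (0.984) and Nes (0.979), and nearest to Cd34 were Grk5 (0.912), Cd151 (0.911) and Crim1 (0.908). Ppp1r16b averaged 238 CPM in P0 Emcn+ and at most 6.62 in any other condition, so it too was under 10 CPM on average elsewhere. Podxl2 went most with Ift80 (0.959), Zfp354c (0.957) and Gpsm2 (0.956), which were all lowest in P0 Emcn+ (14.1, 4.60 and 5.51 CPM) and highest in BM MSC (52.1, 47.9 and 46.8 CPM). Cd164 went most with Ahcyl2 (0.955), Rap2c (0.940) and Znf41-ps (0.928). Among the 5 sialomucins, r was 0.902 for Emcn with Podxl, 0.426 for Emcn with Cd34, 0.503 for Cd34 with Podxl and -0.778 for Emcn with Podxl2.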

How the data were processed

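Bulk RNA-seq libraries of sorted cultured mouse cells were compared by condition, replicate and batch as given in the sample labels (8 conditions, 15 libraries, 4 batches). Reads were aligned by the authors to GRCm38 (STAR), quantified with Salmon against Ensembl transcripts and summed by gene (tximport), and they deposited whole-number counts for 44674 genes without normalization. How the Salmon estimates came to be whole numbers is not stated, and estimates can split reads between overlapping genes.

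The 5 genes were taken by symbol. CPM used library totals. Coordinates and exon lengths came from GENCODE M21 of GRCm38, and promoter windows from RefSeq. Differential expression was tested with edgeR 4.0.16 in R 4.3.3 (TMM, filterByExpr with a minimum count of 10 and a minimum total of 15, quasi-likelihood F test, all 15 libraries, 1 coefficient per condition, 7 residual and 3.07 prior degrees of freedom). This left 19401 genes, with all 5 sialomucins among them, and Benjamini-Hochberg adjustment ran over all of them. The 95% intervals are from the SE and 10.1 degrees of freedom. Alternatives were DESeq2 1.42.0 (Wald test, and ashr 2.2.63 shrinkage), RLE factors, other filters, a replicate block (1 centred batch term within P0 and Lung, and 1 within passaged and BM MSC libraries), only the compared groups, no fold limit, and each library left out. Leaving out a library leaves a lone one, which is assumed to vary like the other groups.

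Replicates with the same number share a batch by the labels among the P0 and Lung libraries, and likewise among P1 to P3. Their deviations from the group means correlated by 0.139 to 0.209 and by 0.354 to 0.451. Both BM MSC libraries are of 1 batch and are paired with none. In simulated counts with 200 changed genes, the fit recovered 182 for P0 Emcn+ against P0 Emcn- (18361 genes). Of these, 82 had a simulated log2 change of 2 and 100 one of 3. The lowest number over the comparisons was 176, for BM MSC against P0 Emcn-. Only well-counted genes were changed and no batch effect was simulated, so low counts such as those of Podxl are not covered. The genes and lists were chosen with earlier results of these data known. Genes of a list were named when called, among the 3 largest changes of their list and comparison, at 10 CPM or more in each library of the higher group and without overlap, and the likeness rule names 5 genes for Emcn and 3 for each other sialomucin. Cdh5 and Pecam1 were named as markers, and Sele, Kit, Tek, Robo4, Cldn5 and other genes outside these rules were chosen after their values were seen. Promoter words searched were those given in the text, and also CACCC (KLF) and ACAAAG or ACAATG (SOX) on either strand. The KLF letters, in 57.5% of all windows, had 1 match each in Cd34, the first Podxl2 start and the Podxl2 window chr6:88874016-88874315. The SOX letters, in 28.6% of all windows, had 2 matches in Cd164 and 1 in the remaining Podxl2 window. The Emcn window held neither.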

Additional observations from a re-analysis of the deposited data

How the results depend on the processing

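Of 500 alternative values for the 5 genes in 8 comparisons, 452 kept their direction and their side of the call, 14 lost a call, 12 gained one and 22 changed sign. The cause was not tested. The number of sialomucins called for BM MSC against passaged Emcn- BMECs (1) was 2 with DESeq2's Wald test, with RLE scaling, with no filter, with at least 50 counts in 2 libraries and with no fold limit, where Emcn or Podxl2 was added, and 0 with the replicate block. The replicate block changed no other call among the 5 genes. With Spearman's rho in place of Pearson's r, the genes named as most alike largely stayed within the 50 nearest for 3 sialomucins and did not for 2. With means of the 8 conditions in place of libraries, they largely stayed for 4 and did not for 1. With each library left out, the numbers called ran from 4 to 4 for P0 Emcn+ against P0 Emcn-, 1 to 3 against Lung and 2 to 3 against BM MSC, 0 to 0 for Lung and 0 to 1 for BM MSC and for P1, each against P0 Emcn-, 0 to 0 for P3 against P1 and 0 to 2 for BM MSC against passaged BMECs.

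Log2 fold changes that changed sign were near 0 or rested on 1 library. For Lung against P0 Emcn-, Cd34 was -0.011 with DESeq2, -0.0013 with ashr, -0.0043 with RLE scaling, -0.024 with at least 50 counts and -0.0022 with only the compared groups, and ran from -0.72 to 1.47 with 1 library left out, while Podxl ran from -0.67 to 4.17. Cd34 was also -0.66 there without Lung replicate 2. Cd164 was 0.18 with the replicate block for BM MSC against passaged BMECs. With 1 library left out, it ran from -0.19 to 0.0072 there, from -0.24 to 0.058 for P0 Emcn+ against P0 Emcn- and from -0.20 to 0.40 for P3 against P1 (-0.05 without P1 replicate 2). For BM MSC against P0 Emcn-, Emcn ran from -2.60 to 2.52 and Podxl from -0.79 to 4.53. For P1 against P0 Emcn-, Cd34 ran from -0.38 to 1.81, Podxl from -2.37 to 1.80 and Podxl2 from -0.21 to 0.29. Emcn ran from -0.88 to 3.50 for BM MSC against passaged BMECs and from -1.05 to 0.88 for P3 against P1 (-0.07 without P1 replicate 2), where Podxl ran from -0.14 to 0.44.

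Over all genes, 43 were called for P3 against P1, and 303 with DESeq2's Wald test, 150 with ashr, 170 with no filter, 106 with the replicate block, 153 with only the compared groups and 0 to 41 with 1 library left out. With only the compared groups, 145 genes instead of 743 were called for Lung against P0 Emcn-, 2396 instead of 3630 for BM MSC and 968 instead of 1715 for P1. With no fold limit, 6609 instead of 3725 were called for P0 Emcn+ against P0 Emcn-, 7209 instead of 4086 against Lung, 9996 instead of 6082 against BM MSC, 6853 for BM MSC and 3387 for P1 against P0 Emcn-, and 6206 instead of 2761 for BM MSC against passaged BMECs. With 1 library left out, the counts were 406 to 675 for Lung and 805 to 2196 for P1 against P0 Emcn-. Levels of Podxl below 1 CPM rest on few counts, and 2 libraries a condition limit every comparison.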
